A study of Mus musculus with 3 samples.

Results

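Protein export and membrane traffic were examined through 110 genes of the Rab, SNARE and secretory pathway families in mouse palate, in the epithelium at the medial edge of the shelves. A gene was a member when its symbol began with Rab, Arf, Vamp, Stx, Stxbp, Sec or Ssr and a digit, with Cop and a, b, e, g or z, or with the letters and digits that name a subunit of adaptor complex 1, 2 or 3. The rule used no measured value and took 154 of 10833 probe sets that name a single gene, or 110 of 8251 genes. The tissue came from CF-1 mouse embryos at embryonic day 13.5, was freed with the enzyme Dispase II, and was measured on 1 array per time point. The 0 h sample was unfused epithelium, for which the labels name no culture. The 12 h sample was fused epithelium from shelves cultured in pairs for 12 h after they first touched, and the 24 h sample came from 24 h of the same culture and is described as fused and transforming into mesenchyme. No genetic alteration or agent is named in the labels for any of the 3, and the embryos that made up each sample are not counted in the sources used here. With 1 array per time point there is no replicate check, no error between samples and no test, and fusion, time and culture cannot be told apart.

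Proteins bound for the cell surface, the matrix or the lysosome enter the endoplasmic reticulum through the Sec61 channel, leave it in COPII-coated vesicles and are returned or sorted by COPI and clathrin adaptor coats. Arf and Rab proteins are small GTPases that recruit coats, motors and tethers to each membrane, and SNARE proteins, the syntaxins and Vamps, drive the fusion of a vesicle with its target. Epithelia use this machinery to deliver junction proteins, integrins and matrix to distinct faces of the cell.

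Signals were scaled to a common trimmed mean over all probe sets other than controls, and a floor was set at the pooled 40th percentile, a scaled signal of 13.5. A gene is given by its brightest probe set, and where 1 array of a pair is at the floor the ratio is a bound ("at least"). Of the 110 members, 84 were above the floor on all 3 arrays (76.4%, against 56.7% of all genes), and 7 were at the floor on all 3, namely Ssr4, Rab17, Rab20, Rab35, Rab3b, Ap1s2 and Ap2s1. The arrays differed in more than time. The control ratio of 3' to 5' signal was 0.828, 14.9 and 12.6 for Gapdh and 1.02, 11.9 and 2.97 for Actb at 0, 12 and 24 h. Of 10 epithelial markers, 8 were above the floor on each array with a summed signal of 885, 2240 and 1916 at 0, 12 and 24 h, while the basal keratins Krt5 and Krt14 were at the floor on all 3 arrays. Palate mesenchyme markers (10, 8 and 9 of 10 above the floor, summed signal 3523, 6535 and 7291), endothelial markers (4, 5 and 4 of 5, 164, 437 and 334), neural markers (7, 5 and 4 of 7, 815, 541 and 542) and globins with Alas2 (4, 3 and 4 of 4, 6356, 1552 and 1453) were also present, whereas of 8 leukocyte markers 3 were above the floor on each array, with Ptprc, Itgam, Itgb2, Lyz2 and Fcer1g at the floor. Of 5 muscle markers 3, 3 and 4 were above the floor at 0, 12 and 24 h, with a summed signal of 178, 125 and 160 and with Tnnt3 at the floor on each array. The sums hide opposite directions. At 12 h over 0 h, 4 of 10 mesenchyme markers were at least 2-fold higher and 4 lower, beside 17.7% and 27.3% of all genes. Col1a2 had 289, 1711 and 3224 at 0, 12 and 24 h, and Mfap2 775, 20.5 and 170. Of 8 epithelial markers with a ratio there, 4 were higher and 0 lower, and of 7 neural markers 0 and 1. The part of other cell types and of the 3' to 5' difference in the ratios of the members was not tested, and fewer cells of a type cannot be told apart from less RNA per cell.

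At 12 h over 0 h, 24 of the 99 members with a ratio passed 2-fold upward (24.2%) and 25 downward (25.3%). Over all genes these shares were 17.7% and 27.3%. Between 24 h and 12 h, 20 of 99 members passed 2-fold upward (20.2%) and 11 downward (11.1%), against 18.8% and 12.0% of all genes. Between 24 h and 0 h, 15 of 103 passed it upward (14.6%) and 10 downward (9.71%), against 14.5% and 17.7%. Most of these shares lay near those of all genes, and a description by role shows which genes were higher or lower. The median log2 ratio of the members was -0.02, 0.24 and -0.0023 in these 3 comparisons, beside -0.21, 0.17 and -0.08 for all genes. The comparisons share arrays in pairs, so each is given by its own values.

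**Figure D1:**
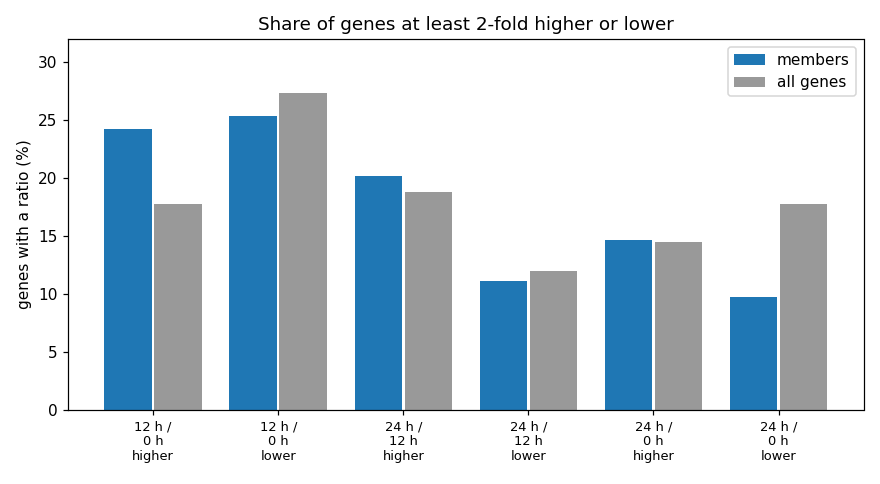
Percentage of genes with a ratio that were at least 2-fold higher or lower in each comparison, for the members (blue, 99, 99 and 103 genes) and for all genes (grey). The member shares of 24.2% higher and 25.3% lower at 12 h over 0 h stand beside 17.7% and 27.3% of all genes, and the widest gap is 9.71% of members against 17.7% of all genes lower at 24 h over 0 h. With the values as deposited those lower shares were 49.5% and 49.3%.

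The scaling sets the balance of higher and lower calls. The upward share of the members' 2-fold calls was 49.0%, 64.5% and 60% in the 3 comparisons, 21.7%, 33.3% and 3.85% with the values as deposited, 60.4%, 42.4% and 75.0% with arrays centred on the median, and 55.6%, 64.0% and 58.1% after quantile normalization. Over all genes the upward share was 39.3%, 61.1% and 45.01%, then 16.8%, 39.4% and 8.36% as deposited, 58.7%, 42.1% and 55.5% centred on the median, and 51.1%, 50.9% and 51.1% after quantile normalization. The all-gene median moved with it, to -0.83, -0.12 and -0.98 as deposited, 0.18, -0.09 and 0.08 centred on the median, and 0.07, 0.01 and 0.03 after quantile normalization.

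The only measure of error within these data is the disagreement between probe sets of the same gene. Around the mean of the gene, the log2 ratios of its sets had an SD of 1.24 over 672 genes at 12 h over 0 h, of 0.82 over 687 genes at 24 h over 12 h, and of 1.07 over 748 genes at 24 h over 0 h. A 2-fold ratio is therefore within 1 such SD where 0 h is the baseline. At least 2 SDs at 12 h over 0 h, or 5.58-fold, were reached by 3 higher members, Sec11a, Sec62 and Vamp4 (3.03%, against 3.23% of all genes), and by 8 lower members, Sec61b, Ssr2, Copz1, Arf1, Stx2, Stxbp2, Ap1m1 and Ap2a2 (8.08%, against 5.19%). For 24 h over 12 h the 2 SDs were 3.10-fold, and 6 members were higher by that much, Ssr2, Copz1, Arf1, Stxbp2, Ap2a2 and Sec14l1 (6.06%, against 6.81%). The 5 lower ones were Ap3s1, Copb1, Vamp3, Vamp7 and Rab26os (5.05%, against 4.20%). For 24 h over 0 h, with 2 SDs at 4.402-fold, Sec11a, Sec62 and Vamp4 were higher (2.91%, against 3.27%) and Sec61b, Stx2 and Vamp3 lower (2.91%, against 3.05%).

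**Figure D2:**
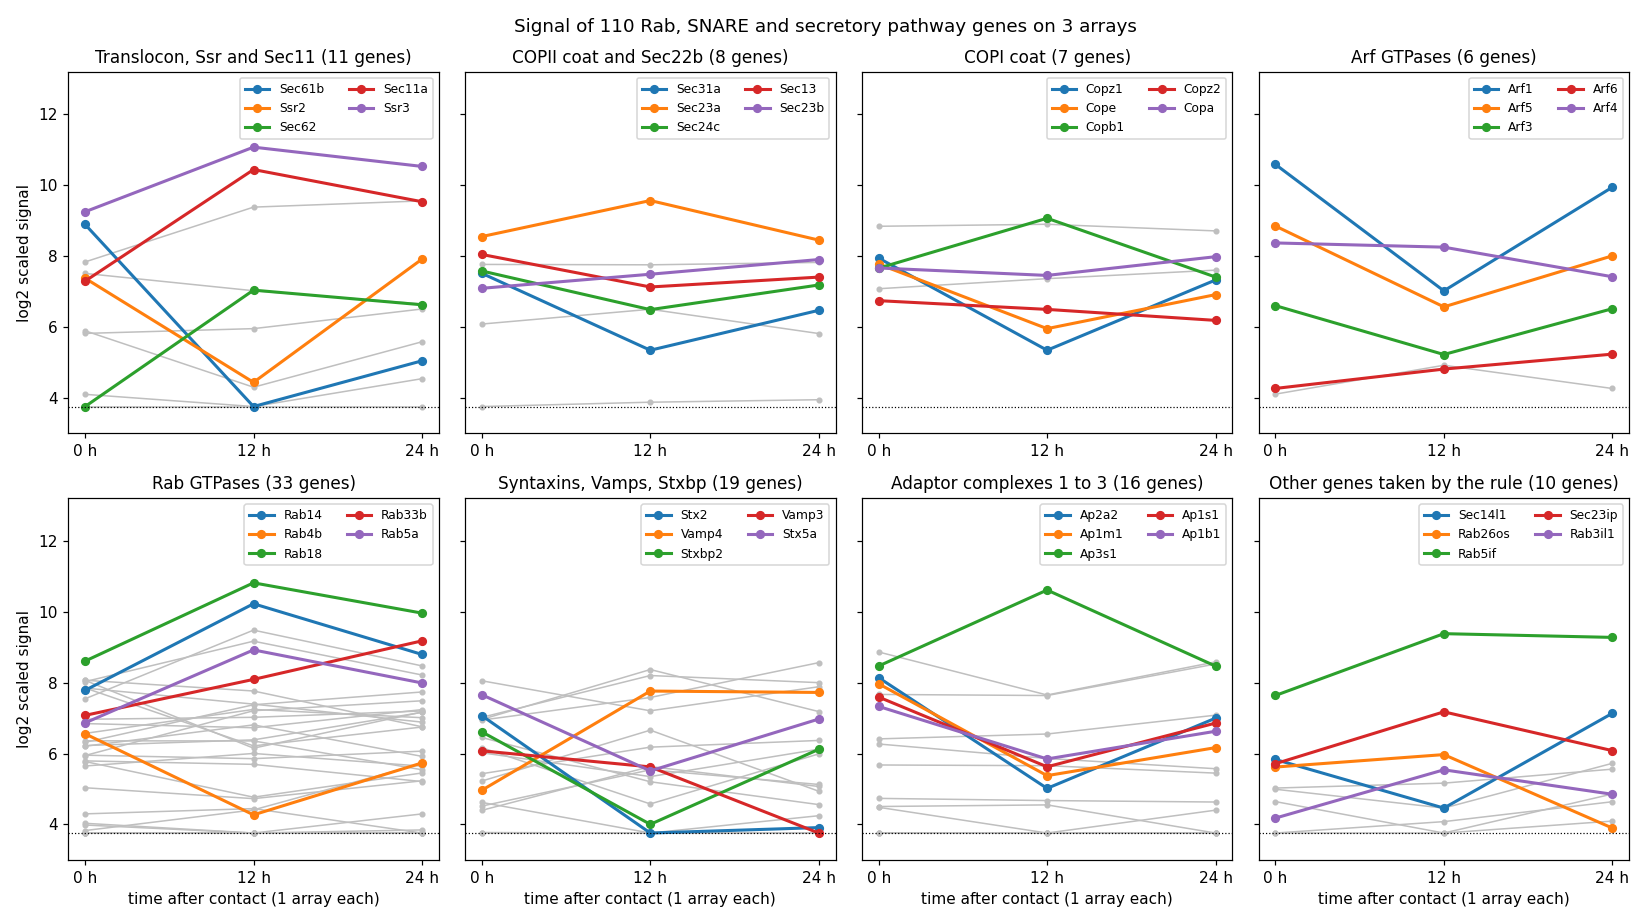
Log2 scaled signal of all 110 members on the arrays of 0, 12 and 24 h, in 8 panels by role; each line is a gene, the 5 genes of widest range in a panel are coloured and named, and the dotted line is the floor. Sec61b, Arf1, Copz1 and Ap2a2 dip at 12 h, whereas Sec11a, Rab14, Rab18 and Ap3s1 peak there.

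Entry into the endoplasmic reticulum went both ways. Of 10 genes with a ratio at 12 h over 0 h, 4 were at least 2-fold higher and 3 lower, beside 17.7% and 27.3% of all genes. Between 24 h and 0 h, 4 of 10 were higher and 1 lower, beside 14.5% and 17.7%, with a median log2 ratio of 0.61 beside -0.08 for all genes. That 24 h count was 2 higher and 1 lower with the mean over probe sets, beside 11.2% and 15.7% of all genes. With the values as deposited it was 1 higher and 3 lower, beside 4.50% and 49.3%. Sec61b, the small beta subunit of the channel, had a scaled signal of 476 at 0 h, lay at the floor at 12 h and reached 33.1 at 24 h. Its 12 h value was at least 35.2-fold below that of 0 h, and its 24 h value at least 2.45-fold above that of 12 h and 14.4-fold below that of 0 h. The 12 h bound is the largest ratio or bound among the 110 members. Sec61a1, the pore-forming subunit, had signals of 229, 668 and 755 at 0, 12 and 24 h by its brightest probe set, 2.92-fold higher at 12 h and 3.30-fold higher at 24 h than at 0 h. Its other probe set read 382, 37.96 and 363, that is, 10.1-fold lower at 12 h than at 0 h and 9.56-fold higher at 24 h than at 12 h. The probe sets of Sec61a1 thus disagree on the direction at 12 h, and neither is preferred here beyond its brightness. Sec61a2, the second pore-forming gene, had 183, 130 and 101, with no 2-fold difference.

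Sec62, which assists the import of finished proteins through the channel, was at the floor at 0 h and had 132 at 12 h and 99.0 at 24 h. Against 0 h these are bounds of at least 9.74-fold and 7.32-fold upward. A second set read 25.2, 121 and 93.0, the same direction at 4.81-fold and 3.69-fold, and the remaining set, at the floor at 12 and 24 h, was at least 1.88-fold lower in both. Sec11a, a catalytic subunit of the signal peptidase that trims new secretory proteins, had 157, 1393 and 743, or 8.86-fold higher at 12 h and 4.72-fold higher at 24 h than at 0 h. Its paralogue Sec11c differed little, at 56.5, 62.1 and 91.1.

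The Ssr genes encode the translocon-associated protein complex, which sits beside Sec61. Ssr2 had 166, 21.7 and 242 at 0, 12 and 24 h, 7.66-fold lower at 12 h than at 0 h and 11.1-fold higher at 24 h than at 12 h. Ssr1 had 59.5, 19.7 and 48.0, lower by 3.01-fold and then higher by 2.43-fold, while its other set gave log2 ratios of 0.29 and 0.45. The 12 h value was the lowest of the 3 in Ssr2 and in the brightest set of Ssr1, but not in the other set of Ssr1. Ssr3 went the other way by its brightest set, with 610, 2159 and 1481, a 3.54-fold higher value at 12 h than at 0 h. Its other sets were lower at 12 h, by 1.52-fold and 6.47-fold, and lower at 24 h than at 0 h, by 2.16-fold and 5.71-fold.

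**Figure D3:**
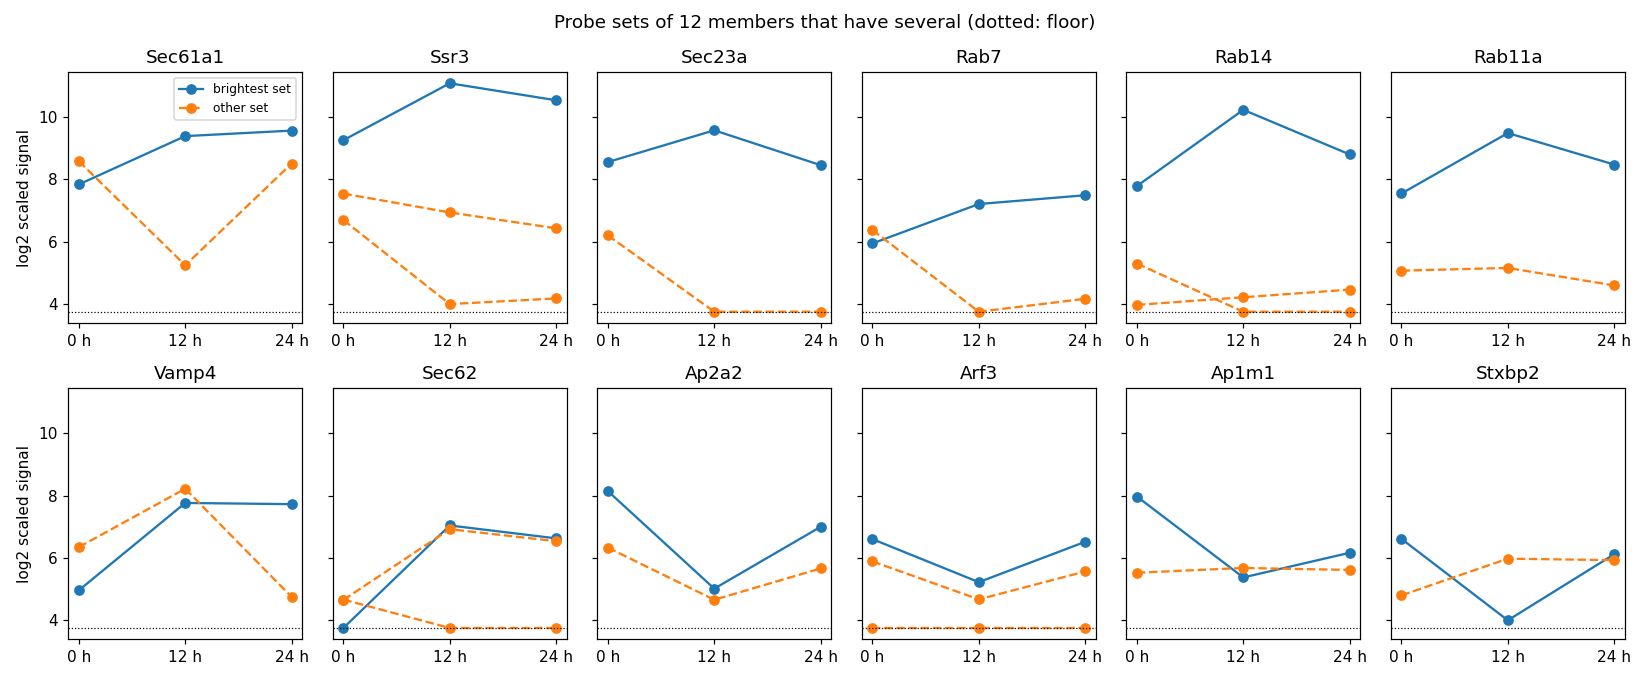
Log2 scaled signal of every probe set of 12 members that have several, on the arrays of 0, 12 and 24 h; blue lines are the brightest set, orange dashed lines the others, and the dotted line is the floor. The sets of Sec61a1, Ssr3, Sec23a and Rab7 diverge at 12 h, while those of Ap2a2 and the measured sets of Arf3 run in parallel.

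The COPII coat forms the vesicles that leave the endoplasmic reticulum. At 12 h over 0 h, 1 of its 8 genes was at least 2-fold higher and 2 lower, beside 17.7% and 27.3% of all genes. Sec31a, of the outer coat, had 183, 40.7 and 88.8 at 0, 12 and 24 h, 4.50-fold lower at 12 h than at 0 h, 2.18-fold higher at 24 h than 12 h and 2.06-fold lower at 24 h than at 0 h. Sec24c, a cargo-binding subunit, had 192, 89.99 and 146 and was 2.13-fold lower at 12 h. Sec23a, its partner in the inner coat, had 376, 760 and 351, 2.02-fold higher at 12 h than 0 h and 2.17-fold lower at 24 h than at 12 h. The other set of Sec23a had 73.7 at 0 h and lay at the floor afterwards, at least 5.45-fold lower. Sec16a, which organises exit sites, hardly differed at 218, 216 and 227, and Sec13, Sec23b and the SNARE Sec22b stayed under 2-fold by their brightest sets. Sec24b was at the floor at 0 h, with bounds that did not reach 2-fold. Another set of Sec22b was 2.28-fold lower at 12 h than at 0 h and 2.48-fold higher at 24 h than 12 h, and another of Sec23b was at least 2.06-fold lower at 24 h than at 12 h.

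The COPI coat returns proteins from the Golgi to the endoplasmic reticulum. Its subunits join the membrane as 1 preassembled complex. At 12 h over 0 h, 1 of its 7 genes was at least 2-fold higher and 2 lower, against the same shares of all genes. Copz1, the zeta subunit, had 247, 40.7 and 161 at 0, 12 and 24 h, 6.06-fold lower at 12 h than at 0 h and 3.95-fold higher at 24 h than at 12 h. Cope, the epsilon subunit, had 219, 62.1 and 121 and was 3.53-fold lower at 12 h. Copb1, the beta subunit, ran opposite, with 202, 537 and 170, 2.65-fold higher at 12 h than 0 h and 3.16-fold lower at 24 h than at 12 h. Copa, Copb2, Copg1 and Copz2 stayed under 2-fold in all comparisons by their brightest sets, although another set of Copg1 was 4.17-fold lower at 12 h than at 0 h and another of Copb2 3.47-fold lower at 24 h than at 12 h. Between 24 h and 0 h, 0 of the 7 COPI genes differed 2-fold by the brightest set, beside 14.5% higher and 17.7% lower of all genes. The other sets of Copg1 and Copb2 were 2.53-fold and 2.55-fold lower there. As deposited, 0 of the 7 were higher and 5 lower, beside 4.50% and 49.3% of all genes.

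Arf proteins recruit COPI and adaptor coats. At 12 h over 0 h, 0 of 6 genes passed 2-fold upward and 3 downward, beside 17.7% and 27.3% of all genes. Arf1, the main Golgi member, had 1541, 130 and 985 at 0, 12 and 24 h, 11.9-fold lower at 12 h than at 0 h and 7.59-fold higher at 24 h than at 12 h. Arf5 had 462, 95.01 and 258, 4.86-fold lower and then 2.71-fold higher. Arf3 had 97.3, 37.4 and 91.7, 2.60-fold lower and then 2.45-fold higher, and a second set gave 2.33-fold lower and 1.86-fold higher. All 3 thus had their lowest signal at 12 h and values at 24 h within 2-fold of those at 0 h. The others were Arf4 with 332, 305 and 171, Arf2 with 17.2, 30.3 and 19.3, and Arf6, the plasma membrane member, with 19.3, 28.1 and 37.7. The Arf median minus the all-gene median at 12 h over 0 h was -0.54, and between -0.28 and -1.63 under the other settings. After quantile normalization 2 of the 6 were at least 2-fold higher and 2 lower, beside 21.9% and 20.9% of all genes.

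Promoters of 5 members, the coat genes Copb1, Copb2 and Sec23a, the GTPase gene Arf1 and the syntaxin gene Stx5a, are shown because they share the letters TGACGTGG, a core bound by factors of the unfolded protein response and by the CREB3 family, which are known to drive secretory genes. The windows come from RefSeq on build GRCm38.p6 and run from 250 bases before to 50 after an annotated start, 5′ to 3′ on the strand of the gene, with every match on either strand in capitals (CCACGTCA where it lies on the other strand). Arf1 and Stx5a have 2 listed windows each, of which 1 is shown. The windows are Arf1 (chr11:59228113-59228412, minus strand, match beginning 84 bases before the start), Copb1 (chr7:114254631-114254930, minus strand, 28 before), Copb2 (chr9:98563481-98563780, plus strand, 7 before), Sec23a (chr12:59011968-59012267, minus strand, 6 after) and Stx5a (chr19:8741174-8741473, plus strand, 9 and 39 after).
Arf1: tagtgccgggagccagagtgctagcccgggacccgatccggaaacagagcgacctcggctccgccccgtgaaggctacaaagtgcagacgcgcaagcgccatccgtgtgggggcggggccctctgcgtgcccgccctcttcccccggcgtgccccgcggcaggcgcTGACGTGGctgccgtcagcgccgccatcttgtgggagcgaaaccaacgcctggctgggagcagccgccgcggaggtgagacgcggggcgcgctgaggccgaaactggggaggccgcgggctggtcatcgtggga
Copb1: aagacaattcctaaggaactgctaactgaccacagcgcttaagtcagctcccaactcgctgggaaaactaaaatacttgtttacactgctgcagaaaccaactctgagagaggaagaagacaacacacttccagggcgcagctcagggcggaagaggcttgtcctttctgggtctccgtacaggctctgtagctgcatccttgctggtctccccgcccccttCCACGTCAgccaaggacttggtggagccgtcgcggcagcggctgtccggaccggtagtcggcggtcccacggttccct
Copb2: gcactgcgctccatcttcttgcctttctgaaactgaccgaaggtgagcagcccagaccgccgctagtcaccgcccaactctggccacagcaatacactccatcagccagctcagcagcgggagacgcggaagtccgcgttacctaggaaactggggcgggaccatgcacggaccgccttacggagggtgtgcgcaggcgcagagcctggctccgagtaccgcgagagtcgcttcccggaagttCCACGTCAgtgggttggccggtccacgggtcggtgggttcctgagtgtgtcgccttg
Sec23a: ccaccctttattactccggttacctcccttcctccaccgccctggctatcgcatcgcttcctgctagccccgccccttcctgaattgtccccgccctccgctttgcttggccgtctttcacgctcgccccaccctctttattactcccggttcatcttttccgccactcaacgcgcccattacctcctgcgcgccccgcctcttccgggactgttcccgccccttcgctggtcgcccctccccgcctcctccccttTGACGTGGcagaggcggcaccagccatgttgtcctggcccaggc
Stx5a: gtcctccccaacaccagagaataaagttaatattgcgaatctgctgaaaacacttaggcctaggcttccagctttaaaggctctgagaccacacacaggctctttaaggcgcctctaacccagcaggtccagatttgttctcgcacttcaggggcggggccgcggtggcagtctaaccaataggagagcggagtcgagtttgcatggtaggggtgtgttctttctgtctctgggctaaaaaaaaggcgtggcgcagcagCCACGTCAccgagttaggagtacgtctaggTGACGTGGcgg
Of 98 members with a listed promoter, 5 held this motif (5.10%), against 1.14% of 6572 genes on the array. In both shares a gene counts if any of its windows matched. Of all 32851 promoters of the same length, counted singly and so not on the same footing, 0.676% held it. The 5 genes did not move together: at 12 h over 0 h Arf1 and the Golgi syntaxin Stx5a were 11.9-fold and 4.43-fold lower, Copb1 and Sec23a 2.65-fold and 2.02-fold higher, and Copb2 1.04-fold higher.

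In all, 10 motifs were searched on both strands, chosen with the data known. The CLEAR element, a palindrome around TCACGTGA that the lysosomal regulator Tfeb binds, was found at Rab5a, Rab21 and Rab24 (3.06%, against 0.715% of array genes). Its inner TCACGTGA was also at Sec62, Stx6 and Sec23ip (6.12%, against 1.92%), and the CACGTG within both was at 16 members (16.3%, against 11.5%). The cAMP response element TGACGTCA, which overlaps TGACGTGG in 6 letters, was at Ap2b1, Cope, Rab25, Rab5a and Stxbp3 (5.10%, against 3.17%). The spaced endoplasmic reticulum stress element, CCAAT and CCACG at a fixed distance, was found in 0 of 98 windows (0.183% of array genes). Its parts CCAAT and CCACG, of which CCACG also lies within the reverse of TGACGTGG, were in 43.9% and 54.1% (against 42.5% and 48.8%), the GC box GGGCGG in 77.6% (against 63.1%) and TATAAA in 6.12% (against 12.2%). These matches describe letters in a window, and no binding was measured.

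Rab proteins mark each compartment. Of 28 Rab genes with a ratio at 12 h over 0 h, 8 passed 2-fold upward and 4 downward, beside 17.7% and 27.3% of all genes. At 24 h over 0 h 7 of 29 did so upward and 2 downward, beside 14.5% and 17.7%. With the values as deposited these counts were 4 upward and 5 downward at 12 h, beside 9.06% and 44.8% of all genes. At 24 h they were 1 upward and 11 downward of 29, beside 4.50% and 49.3%. Their median minus the all-gene median was 0.31 and 0.27 in these comparisons, and positive under the 9 other settings computed over all 3 arrays (0.26 to 0.39 and 0.09 to 0.31). Rab5a, of early endosomes, had 117, 486 and 255 at 0, 12 and 24 h, 4.16-fold higher at 12 h and 2.18-fold higher at 24 h than at 0 h. Rab5c, its close relative, had 79.7, 166 and 213, 2.09-fold and 2.68-fold higher. The paralogue Rab5b was at the floor at 0 and 12 h and had 19.7 at 24 h.

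Rab14, which works between the Golgi and endosomes, had 220, 1198 and 445, 5.44-fold higher at 12 h than 0 h and 2.69-fold lower at 24 h than at 12 h. Its dimmer sets gave log2 ratios of 0.24 and, as a bound, -1.54 at 12 h over 0 h. Rab11a, the GTPase of recycling endosomes, had 187, 715 and 355, 3.83-fold higher at 12 h than 0 h and 2.01-fold lower at 24 h than at 12 h, while its other set stayed at 33.7, 35.8 and 24.3. The peak of Rab11a at 12 h therefore rests on 1 of its 2 probe sets. Rab18, of lipid droplets and the endoplasmic reticulum, had 390, 1804 and 998, 4.62-fold higher at 12 h and 2.56-fold higher at 24 h than at 0 h. Rab7, of late endosomes and lysosomes, had 61.6, 148 and 180, 2.40-fold and 2.92-fold higher, but its other set, with a suffix that marks possible cross-hybridization, had 83.1 at 0 h, the floor at 12 h and 18.0 at 24 h, at least 6.14-fold and then 4.61-fold lower. The direction of Rab7 depends on the set chosen. Rab33b, a Golgi Rab linked to autophagy, had 135, 273 and 580, 4.29-fold higher at 24 h than 0 h. That set also has a suffix of possible cross-hybridization, and the other set of Rab33b gave the same direction at 1.63-fold. Rab3a, of regulated exocytosis, had 14.2, 21.3 and 52.6, with the 0 h value close to the floor, and was 3.70-fold higher at 24 h than at 0 h.

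Rab4b, Rab34 and Rab8a had their lowest value at 12 h. Rab4b, of fast recycling, had 94.2, 19.3 and 53.3 at 0, 12 and 24 h, 4.88-fold lower at 12 h than at 0 h and 2.76-fold higher at 24 h than at 12 h. Rab34 had 268, 71.1 and 144, 3.77-fold lower and then 2.03-fold higher. Rab8a, which carries cargo to the basolateral surface and to cilia, had 231, 74.4 and 108, 3.10-fold lower at 12 h and 2.15-fold lower at 24 h than at 0 h. Rab2a, of traffic between the endoplasmic reticulum and the Golgi, was lowest at 24 h with 268, 217 and 108, 2.48-fold lower at 24 h than at 0 h. Rab9 and Rab4a also passed 2-fold at 12 h, higher and lower. Rab25, an epithelial Rab, had 50.2, 64.1 and 50.03, and Rab1a, Rab6a, Rab10, Rab11b, Rab12, Rab21, Rab24, Rab28 and Rab31 stayed under 2-fold by their brightest sets. Of these, other sets of Rab6a and Rab31 went beyond 2-fold at 12 h, 4.07-fold lower and at least 5.68-fold higher. Rab3d stayed under 2-fold as well, and Rab8b, Rab23 and Rab33a, at the floor on at least 1 array, had bounds that did not reach it.

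**Figure D4:**
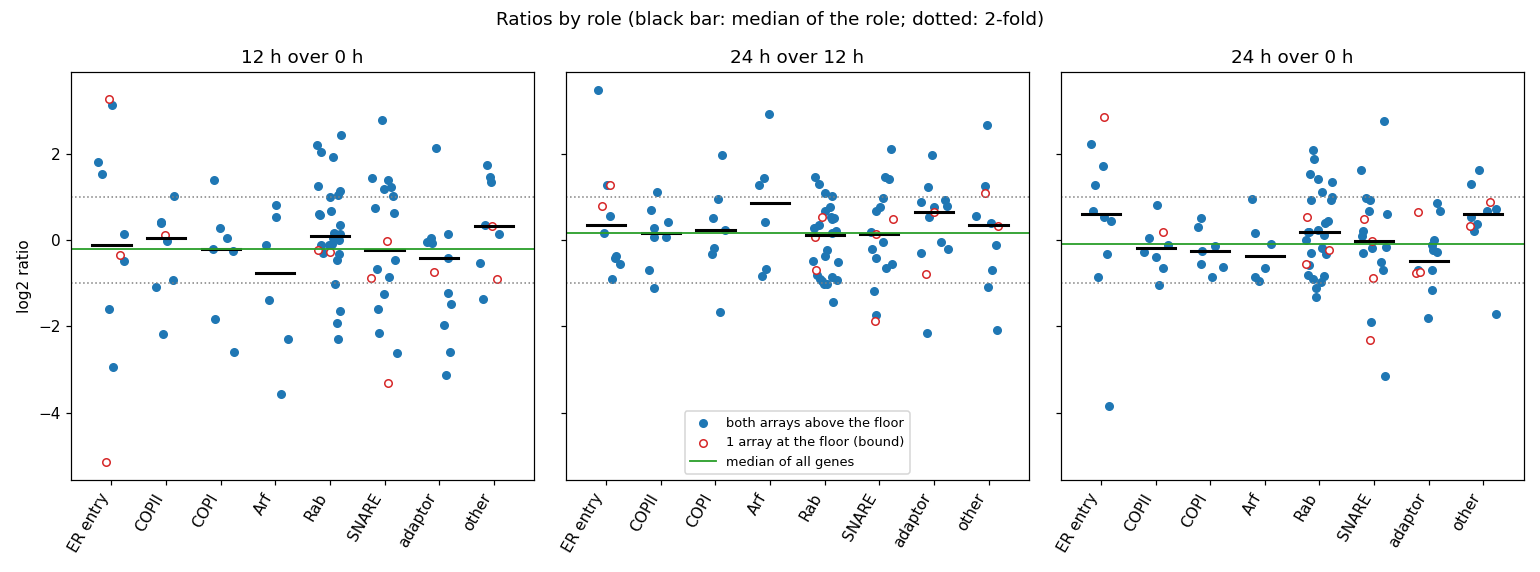
Log2 ratio of each member in the 3 comparisons, by role; filled points have both arrays above the floor, open points are bounds, black bars are medians of a role, the green line is the median of all genes and dotted lines mark 2-fold. The Arf median lies below the all-gene median at 12 h over 0 h and above it at 24 h over 12 h, and the Rab median lies above it at 24 h over 0 h.

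Among syntaxins, Vamps and their binding proteins, 6 of 18 genes passed 2-fold upward and 5 downward at 12 h over 0 h, beside 17.7% and 27.3% of all genes. As deposited, 1 passed upward and 9 downward, beside 9.06% and 44.8% of all genes. Stx2, a plasma membrane syntaxin also known as epimorphin, had 134 at 0 h, the floor at 12 h and 15.05 at 24 h, at least 9.93-fold lower at 12 h and 8.92-fold lower at 24 h than at 0 h. Stx4a, another syntaxin of the plasma membrane, had 123.1, 192 and 379, 3.08-fold higher at 24 h than at 0 h. The plasma membrane syntaxins Stx2 and Stx4a thus differed in direction. Stx5a had 202, 45.6 and 126, 4.43-fold lower at 12 h than at 0 h and 2.76-fold higher at 24 h than at 12 h. Stx18, of the endoplasmic reticulum, had 71.8, 23.9 and 63.6, 3.01-fold lower and then 2.66-fold higher. Stx7, of late endosomes, had 125, 331 and 145, 2.65-fold higher at 12 h than 0 h and 2.28-fold lower at 24 h than at 12 h, and Stx12, of early endosomes, had 130, 294 and 256, 2.27-fold higher at 12 h. Stx3, an apical syntaxin, had 21.1, 49.6 and 33.6, 2.35-fold higher at 12 h than at 0 h. Stx6, Stxbp3 and Vamp8 stayed under 2-fold by their brightest sets, and Stx8 just passed it at 12 h. Stx1a, Vamp1 and Vamp5 lay at the floor on 2 arrays each, and their bounds did not reach 2-fold. Another set of Vamp8 was 2.57-fold lower at 12 h than at 0 h.

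Vamp4, of the trans-Golgi network, had 31.2, 217 and 211 at 0, 12 and 24 h by its brightest set, 6.96-fold higher at 12 h and 6.77-fold higher at 24 h than at 0 h. Its other set read 81.5, 298 and 27.0, higher at 12 h by 3.66-fold but 11.04-fold lower at 24 h than at 12 h and 3.02-fold lower at 24 h than at 0 h. Both sets of Vamp4 placed 12 h above 0 h, and they disagreed at 24 h. Vamp7, of late endosomes and lysosomes, had 37.4, 101 and 30.6, 2.70-fold higher at 12 h than 0 h and 3.30-fold lower at 24 h than at 12 h. Vamp2 and Vamp3, which serve fusion at the plasma membrane, were lowest at 24 h. Vamp2 had 87.6, 36.9 and 23.6, 3.72-fold lower at 24 h than at 0 h, and Vamp3 had 67.5, 49.3 and the floor, at least 4.99-fold lower. Stxbp2, a syntaxin-binding protein of epithelia, had 97.8, 16.03 and 69.6, 6.10-fold lower at 12 h than at 0 h and 4.34-fold higher at 24 h than at 12 h, whereas its other set was 2.26-fold higher at 12 h than at 0 h.

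Adaptor complexes select cargo for clathrin and related vesicles at the trans-Golgi network (complex 1), the plasma membrane (complex 2) and endosomes on the way to lysosomes (complex 3). Of 13 subunit genes with a ratio at 12 h over 0 h, 5 were at least 2-fold lower and 1 higher, beside 27.3% and 17.7% of all genes, and the 5 belonged to complexes 1 and 2. Ap1m1 had 250, 41.6 and 71.9 at 0, 12 and 24 h, 6.03-fold lower at 12 h and 3.48-fold lower at 24 h than at 0 h, but its other set stayed at 46.1, 51.3 and 49.1. Ap1s1 had 193, 49.4 and 116, 3.91-fold lower at 12 h than at 0 h and 2.35-fold higher at 24 h than 12 h, and Ap1b1 had 161, 57.6 and 99.0, 2.79-fold lower at 12 h. The gamma subunit Ap1g1 stayed under 2-fold, at 77.2, 58.1 and 47.6. Ap2a2, an alpha subunit of the endocytic complex, had 282, 32.4 and 128, 8.72-fold lower at 12 h than at 0 h and 3.95-fold higher at 24 h than at 12 h. Its other set gave the same directions at 3.18-fold and 2.004-fold. Ap2m1, the mu subunit of that complex, had 467, 201 and 384, 2.32-fold lower at 12 h, while its other set read 27.1, 26.4 and 29.3. Ap2a1 stayed under 2-fold, and for Ap1g2, Ap2b1 and Ap3s2, at the floor on at least 1 array, the bounds did not reach it.

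In complex 3 a single gene passed 2-fold. Ap3s1, a sigma subunit, had 355, 1567 and 354 at 0, 12 and 24 h, 4.42-fold higher at 12 h than 0 h and 4.43-fold lower at 24 h than at 12 h. Its partners Ap3b1 (203, 199 and 369), Ap3d1 (85.3, 93.8 and 136) and Ap3m1 (51.2, 50.5 and 43.7) stayed under 2-fold, so the peak at 12 h was that of 1 subunit.

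The rule also took 10 genes of other function, 2 of them non-coding transcripts beside Rab genes. Rab5if had 199, 668 and 621 at 0, 12 and 24 h, 3.35-fold and 3.11-fold higher than at 0 h. Sec14l1, a lipid-binding protein, had 57.0, 22.03 and 141, 6.38-fold higher at 24 h than at 12 h, while the other set gave a log2 ratio of 0.07. Sec23ip, which binds Sec23, had 52.5, 145 and 67.8, 2.76-fold higher at 12 h than 0 h, and Rab3il1 was 2.57-fold higher there. The non-coding Rab26os had 49.2, 62.7 and 14.9, 4.21-fold lower at 24 h than at 12 h. At 24 h Rab3ip was 2.40-fold and Sec14l2 at least 2.15-fold above the 12 h value, and Rab11fip5 stayed under 2-fold. The bounds of Rab10os and Sec1, at the floor on at least 1 array, did not reach it.

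Members with more than 1 probe set number 38, and their sets often disagreed. A suffix of possible cross-hybridization is on the brightest sets of Rab33b, Arf4, Vamp1, Vamp8, Copb2, Sec24b and Sec14l2. It is also on other sets, among them those of Rab7, Rab31 and Stxbp2. At 12 h over 0 h, 17 members at least 2-fold different by the brightest set had another set with a ratio. In 8 of them every other set had the same direction, however small its ratio. These 8 include Rab11a and Ap2m1, whose other sets had log2 ratios of 0.09 and -0.04. In 4 another set was also 2-fold different the same way, and in 6 (Rab14, Rab7, Sec23a, Sec61a1, Ssr3 and Stxbp2) another set was 2-fold different the opposite way. For 24 h over 12 h these counts were 8, 1 and 0 of 10 members. Those 8 include Rab3ip and Sec14l1, whose other sets had log2 ratios of 0.05 and 0.07. For 24 h over 0 h the counts were 2, 1 and 4 of 10, the 4 being Rab14, Rab7, Ssr3 and Vamp4. The opposite readings at 12 h and 24 h against 0 h come with the raised control 3' to 5' ratios of those arrays, and their part was not tested.

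Partners of the members outside the rule were described from 5 lists of other pathway genes. Of 18 SNARE partners with a ratio at 12 h over 0 h, 1 passed 2-fold upward and 9 downward, beside 17.7% and 27.3% of all genes. Their median log2 ratio was -1.06, beside -0.21. Napa, the adaptor that with Nsf disassembles spent SNARE complexes, had signals of 141, 13.7 and 82.7 at 0, 12 and 24 h, 10.3-fold lower at 12 h than at 0 h and 6.02-fold higher at 24 h than at 12 h. Bnip1, a SNARE of the endoplasmic reticulum, had a bound of at least 9.79-fold lower at 12 h than at 0 h. The late endosomal tether Vps41 was 2.87-fold lower at 12 h and 3.43-fold lower at 24 h than at 0 h. The 1 upward gene, Vti1b, had 139, 434 and 183, 3.12-fold higher at 12 h than at 0 h. Of 19 SNARE partners 0 were 2-fold higher and 6 lower at 24 h than at 0 h, beside 14.5% and 17.7% of all genes.

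Genes of endoplasmic reticulum entry outside the members had 5 of 15 higher and 4 lower at 12 h than at 0 h. Over all genes the shares at least 2-fold higher and lower there were 17.7% and 27.3%, the background for each list below. Srp68, of the signal recognition particle, was 8.28-fold lower, and the oligosaccharyltransferase subunits Rpn2 and Ddost were 6.55-fold higher and 4.82-fold lower. The other set of Rpn2 gave a log2 ratio of 0.74, and both its sets have a suffix of possible cross-hybridization. Genes of traffic to the Golgi had 8 of 30 higher and 9 lower, with Bcap29 5.42-fold and the retrieval receptor Kdelr1 3.07-fold higher and Arfgap2 4.75-fold lower. Kdelr1 was 5.01-fold higher at 24 h than at 0 h. Rab and Arf regulators had 3 of 13 higher and 3 lower, with Rin2, an activator of Rab5, 17.2-fold higher and the Rab-binding Rabac1 14.4-fold lower. Clathrin and exocyst genes had 3 of 15 higher and 2 lower, with the endocytic scaffold Eps15 11.5-fold higher, although its other set was lower, with a bound of -0.31 on the log2 scale. The 2-fold higher and lower genes of these 4 lists at 24 h over 12 h numbered 3 and 5 of 15, 6 and 2 of 29, 4 and 2 of 14, and 3 and 0 of 13, and for SNARE partners 2 and 1 of 18. Over all genes the shares were 18.8% and 12.0%. For 24 h over 0 h those of the 4 lists numbered 1 and 2 of 15, 4 and 3 of 30, 1 and 2 of 14, and 4 and 2 of 15, beside 14.5% and 17.7% of all genes. The median log2 ratios of these 4 lists at 12 h over 0 h were 0.10, -0.12, -0.17 and -0.34, beside -0.21 for all genes.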

How the data were processed

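Each array has a deposited intensity for every probe set on a linear scale, without detection calls. Per the labels, RNA was amplified before hybridization (RiboAmp, with ENZO labelling). They name Microarray Suite 5.0 and GeneSpring 6.0 but not which of them wrote the values, nor any scaling. Of 12488 probe sets, 66 controls served only as quality measures.

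Arrays were scaled to the geometric mean of their 2% trimmed means (93.7, 58.1 and 46.8 at 0, 12 and 24 h), floored at the 40th percentile and taken to log2. Probe sets naming several genes (396) or none (1193) stayed out of gene counts. A gene at the floor on both arrays of a pair has no ratio. All 110 members matched the RefSeq gene table (GRCm38.p6). With 1 array per time point, calls follow a 2-fold size rule, and the number of arrays limits precision. The members, role groups and lists were chosen with earlier results of these data known. Named genes were subunits of the translocon and coats, and Arf, Rab, SNARE and Sec22 genes, that were at least 2-fold different, at most 12 per group, with up to 3 genes for each list of partners. Values of paralogues and subunits under 2-fold, and of the SNARE partner Vti1b, were added after they were seen. The procedure was tested on simulated data in which all probe sets of a bright gene changed alike. Those data did not hold the disagreement between sets seen here, so the test does not bear on it. Python 3.11.15, numpy 2.4.6 and pandas 2.3.3 were used.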

Additional observations from a re-analysis of the deposited data

How the results depend on the processing

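Of 105 member ratios of at least 2-fold, 9 changed sign under at least 1 of 11 alternatives, and all 105 kept it under median centring, quantile normalization and the floors at the 20th percentile or none. The lower floor or none keeps the order of the 2 arrays, so it could not change a sign. Median centring moved the all-gene median at 12 h over 0 h from -0.21 to 0.18, so it could hardly reverse a ratio of 2-fold. With the mean over probe sets the 12 h over 0 h log2 ratios became -0.893 for Sec61a1, -0.4912 for Ssr3, -0.715 for Sec23a and -0.6778 for Rab7, and those of 24 h over 0 h -0.7821 for Ssr3, -0.01348 for Rab14 and -0.3302 for Rab7. By construction this setting averages sets that disagree. Where the values as deposited, or only the 2 arrays of a comparison, chose another set as brightest, Vamp4 gave -2.598 at 24 h over 0 h and Stxbp2 -0.04744 at 24 h over 12 h. The second of these settings was chosen after seeing the data. Counting each probe set on its own gives no value per gene, and the 3-fold rule leaves the ratios unchanged, so neither could change a sign.

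With the values as deposited there were 10 members higher at 12 h over 0 h (10%, against 9.06% of all genes). At 24 h over 12 h there were 10 higher and 20 lower (10.4% and 20.8%, against 12.0% and 18.5%). At 24 h over 0 h there were 2 higher and 50 lower (1.98% and 49.5%, against 4.50% and 49.3%). At 24 h over 12 h, median centring gave 19 lower (19%, against 17.8%) and the floor at the 60th percentile 12 higher (14.3%, against 14.9%). At 24 h over 0 h, the mean over sets gave 8 higher (7.77%, against 11.2%) and each set on its own 19 lower (14.2%, against 18.5%). A 3-fold rule left 10 of 99 higher at 12 h over 0 h. At 24 h over 12 h it left 6 higher and 5 lower of 99, and at 24 h over 0 h 8 higher and 6 lower of 103. The share of all genes under that rule is not given, so these counts cannot be set against a background. The members' median log2 ratio followed the scaling, at -0.7051, -0.0343 and -0.9472 in the 3 comparisons as deposited and 0.4065, -0.004811 and 0.1655 with median centring, and at 0.2804 for 12 h over 0 h and 0.1487 for 24 h over 12 h after quantile normalization. The cause of these moves was not tested, other than that a stricter rule calls fewer genes. No paired analysis was possible because each time point has 1 array.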

Other observations

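Sec61g, the gamma subunit of the Sec61 channel, fell outside the members because its only probe set names 5 genes. That set had scaled signals of 936, 318 and 120 at 0, 12 and 24 h, and it cannot be assigned to Sec61g alone.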
